A study of Homo sapiens with 30 samples.

Results

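The HOX cluster genes are the human homeobox genes named HOXA, HOXB, HOXC or HOXD with a number, and they were found in the count files by matching each Ensembl identifier to its symbol. They were 39 of 58278 genes, of which 11 lie in the HOXA cluster on chromosome 7, 10 in HOXB on chromosome 17, 9 in HOXC on chromosome 12 and 9 in HOXD on chromosome 2. Polyadenylated RNA had been counted in 30 libraries made from HEK293, a cell line of human embryonic kidney origin, here with the genotype wt. All cultures were transfected with a mistranslation reporter, a fusion of a mutant EGFP with mCherry, and mCherry-positive cells were sorted 48 h later. In 5 groups the reporter was expressed with its missense-correcting tRNA (mc-tRNA), a tRNA charged with another amino acid than its anticodon calls for, and in 5 groups it was expressed alone. The groups, with 3 libraries each, were EGFP(R65)+Ser-tRNA_Arg(CCG) and EGFP(R65), EGFP(R96Q)+Arg-tRNA_Gln(CUG) and EGFP(R96Q), EGFP(R96C)+Arg-tRNA_Cys(GCA) and EGFP(R96C), EGFP(R96H)+Arg-tRNA_His(GUG) and EGFP(R96H), and EGFP(R96W)+Arg-tRNA_Trp(CCA) and EGFP(R96W). All 10 groups thus share the transfection, a reporter and the sort, and untransfected cells were not analysed here. Each comparison asks how an mc-tRNA moved mRNA levels relative to the same reporter alone.

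HOX genes encode transcription factors with a homeodomain, which give cells along the body axis and the limbs their positional identity. Genes with the same number in different clusters are paralogues, and the order of genes in a cluster follows the order in which they are expressed from head to tail, low numbers anterior and high numbers posterior. Polycomb complexes keep HOX genes silent and Trithorax and MLL complexes keep them active, retinoic acid and CDX factors act on them in the embryo, and the TALE proteins PBX, MEIS and PKNOX bind DNA together with HOX proteins. A cell line usually keeps the pattern of HOX genes of the cells it came from, and the paralogues numbered 11 are needed for kidney formation in mice.

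The libraries held 39017548 to 55446962 gene counts, so that a count of 0 allows up to 3 counts, or 0.0541 to 0.0769 CPM (counts scaled to the same library total), for counting error only. The 6 HEK293 markers were detected in every library and summed to 555 to 798 CPM. VIM was highest at 425 to 607 CPM, and PAX2 lowest at 1.72 to 4.84 CPM. The 14 markers of blood, stroma, keratinocytes and endothelium summed to 1.62 to 8.29 CPM, and among their defining genes CD3E and HBB were at 0 in 29 libraries each, KRT14 in 27, KRT5 in 20, PTPRC in 19 and CDH5 in 15. CD79A, COL1A2 and COL3A1 were at 0 in no library, and the highest levels in the list were COL3A1 at up to 3.89 CPM, LUM at up to 3.58 CPM and PECAM1 at up to 1.97 CPM. ERCC spike-in counts were 0 in all 6 EGFP(R65) libraries and 10 to 106 in each of the 24 with an EGFP(R96) reporter. Where EGFP(R65) is set against the other reporters, reporter and preparation therefore cannot be told apart. With the reporter alone, ERCC counts were 78 to 106 for EGFP(R96Q) and 52 to 82 for EGFP(R96C). They were 34 to 61 for EGFP(R96W) and 20 to 22 for EGFP(R96H). With the mc-tRNA of each reporter they were lower, without overlap. The counts were then 27 to 50, 20 to 40, 25 to 32 and 10 to 17, in that order. The part of these differences in the results was not tested.

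The start regions of 4 genes are shown, picked by change or level, and no result was tested against them. HOXA11 rose most with Ser-tRNA_Arg(CCG), HOXA2 and HOXA6 fell most with Arg-tRNA_Cys(GCA), and HOXD13 is among the 3 genes with the highest level. Each sequence is a RefSeq promoter (GRCh38.p14) with 250 bases before and 50 after the start, 5′ to 3′ on the strand of the gene, and capitals mark motif matches. The windows are chr7:27185183-27185482 on the minus strand for HOXA11, chr7:27102634-27102933 on the minus strand for HOXA2, chr7:27147725-27148024 on the minus strand for HOXA6 and chr2:176092471-176092770 on the plus strand for HOXD13.
HOXA11: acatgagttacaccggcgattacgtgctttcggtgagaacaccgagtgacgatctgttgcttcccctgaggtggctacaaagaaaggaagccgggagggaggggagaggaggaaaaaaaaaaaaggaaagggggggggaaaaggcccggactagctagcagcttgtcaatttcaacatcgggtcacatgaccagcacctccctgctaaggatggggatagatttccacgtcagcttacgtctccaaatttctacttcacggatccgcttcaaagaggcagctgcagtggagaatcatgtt
HOXA2: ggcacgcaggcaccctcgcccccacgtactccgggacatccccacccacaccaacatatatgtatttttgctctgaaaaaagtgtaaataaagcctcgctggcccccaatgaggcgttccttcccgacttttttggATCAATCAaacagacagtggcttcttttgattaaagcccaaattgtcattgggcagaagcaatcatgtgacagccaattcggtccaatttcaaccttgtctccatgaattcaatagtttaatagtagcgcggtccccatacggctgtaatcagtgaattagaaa
HOXA6: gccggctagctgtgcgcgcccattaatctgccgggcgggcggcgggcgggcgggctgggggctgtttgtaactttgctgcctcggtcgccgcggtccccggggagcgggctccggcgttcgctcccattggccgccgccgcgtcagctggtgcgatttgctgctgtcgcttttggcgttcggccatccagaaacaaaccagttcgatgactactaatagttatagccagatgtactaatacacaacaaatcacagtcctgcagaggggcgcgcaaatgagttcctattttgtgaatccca
HOXD13: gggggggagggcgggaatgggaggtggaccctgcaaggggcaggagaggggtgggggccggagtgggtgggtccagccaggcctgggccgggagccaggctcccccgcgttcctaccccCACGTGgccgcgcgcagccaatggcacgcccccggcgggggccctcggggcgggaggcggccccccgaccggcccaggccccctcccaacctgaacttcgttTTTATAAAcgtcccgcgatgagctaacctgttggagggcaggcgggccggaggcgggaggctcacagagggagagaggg
The motifs searched, on both strands, were TGATNNAT, a core of sites bound by HOX and PBX proteins, CACGTG, the E-box, TATAAA, the TATA box, and GAANNTTC, a core of the heat shock element. HOXA2 held TGATNNAT 114 bases before the start. HOXD13 held CACGTG and, nearer the start, overlapping TATAAA matches 29 and 27 bases before it. HOXA11 and HOXA6 held none of the 4 motifs, which says only that these letters are not in these windows.

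RefSeq promoters were matched for 20 of the 39 genes, 27 promoters in all, and HOXC4 and HOXC5 were listed with the same window. Except for HOXB1, HOXC4 and HOXC5, these genes lie in HOXA or HOXD, and HOXA3 has several of the promoters. The shares below therefore mostly describe HOXA and HOXD. CACGTG was present in 9 of the 27 (33.3%), against 7.26% of all 35116 promoters of the same length. These promoters belonged to HOXA3, HOXA4, HOXA7, HOXA9, HOXD1, HOXD3, HOXD10, HOXD11 and HOXD13. TATAAA was in 5 (18.5%), against 11.5% of all promoters, TGATNNAT was in 3 (11.1%), against 7.40%, and GAANNTTC was in 1 (3.70%), against 6.77%. The HOX promoters had a median of 22 CpG dinucleotides and all promoters a median of 14. These matches are descriptions of the sequence and no binding was measured.

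Per kilobase of exon, HOXB9, a gene of the thoracic region, had the highest mean over the 30 libraries at 56.7 CPM per kb. HOXA5, needed for the lung, followed at 34.7 CPM per kb, HOXD13, which patterns the digits, at 29.1, HOXD10 at 23.3 and HOXA6 at 22.5 CPM per kb. Of the 39 genes, 33 had a mean of at least 1 CPM over all libraries, and the others were HOXB1, HOXC5, HOXD1, HOXD3, HOXD4 and HOXD12. HOXB1, a hindbrain gene, had 28 counts in all and 0 in 14 libraries. It was the only HOX gene removed by the filter on low counts, so 38 were tested. Summed by paralogue number, the genes numbered 9 were highest at 89.5 ± 8.19 CPM per kb and those numbered 12 lowest at 0.554 ± 0.167 CPM per kb (SD over 30 libraries).

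**Figure D1:**
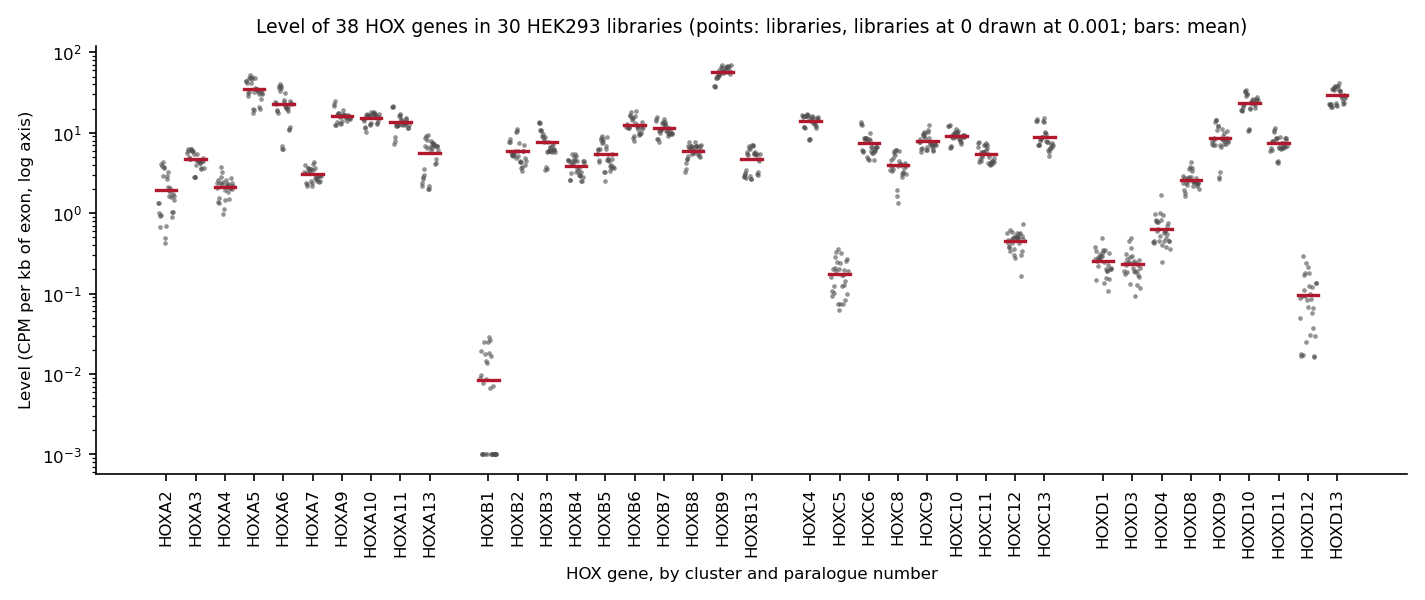
Level of 38 HOX genes in CPM per kilobase of exon on a log axis, ordered by cluster and paralogue number, with 1 point per library and a bar at the mean of 30 libraries. HOXB9, HOXA5 and HOXD13 lie highest with means of 56.7, 34.7 and 29.1 CPM per kb, and HOXB1 has 14 libraries at 0, drawn at 0.001.

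The genes with the highest levels did not move alike. HOXB9 had 38.5, 38 and 37.1 CPM per kb with Ser-tRNA_Arg(CCG), against 48.4, 47.8 and 51.4 CPM per kb with EGFP(R65) alone. It had 65.5, 63.6 and 69.6 CPM per kb with Arg-tRNA_Cys(GCA), against 58.0, 54.6 and 57.3 CPM per kb with EGFP(R96C) alone. HOXB9 was below its reporter alone in the first pair and above it in the second, without overlap in either, on a scale that includes the TMM factors described below. HOXA5 had 44.4, 43.8 and 41.8 CPM per kb with Ser-tRNA_Arg(CCG), against 31.6, 28.3 and 32.3 CPM per kb with EGFP(R65) alone. It had 17.6, 19.8 and 19.2 CPM per kb with Arg-tRNA_Cys(GCA), against 32.3, 35.8 and 48.2 CPM per kb with EGFP(R96C) alone. It had 20.7, 19.5 and 26.1 CPM per kb with Arg-tRNA_Trp(CCA), against 33.2, 30.7 and 31.5 CPM per kb with EGFP(R96W) alone. HOXA5 was higher with the first mc-tRNA and lower with the other two, and no pair of groups overlapped. HOXD13 had 22.5, 22.4 and 22.8 CPM per kb with Ser-tRNA_Arg(CCG), against 21.1, 23.0 and 21.1 CPM per kb with EGFP(R65) alone, and these groups overlapped. It had 21.8, 23.2 and 21.8 CPM per kb with Arg-tRNA_Cys(GCA), against 37.7, 38 and 41.2 CPM per kb with EGFP(R96C) alone. It had 23.0, 25.2 and 23.4 CPM per kb with Arg-tRNA_Trp(CCA), against 29.8, 28.3 and 26.7 CPM per kb with EGFP(R96W) alone. HOXD13 was lower with the last 2 mc-tRNAs, without overlap. With Arg-tRNA_Gln(CUG) the libraries of HOXB9 and HOXA5 overlapped those with EGFP(R96Q) alone, while HOXD13 had 34.7, 35.1 and 34.2 CPM per kb with Arg-tRNA_Gln(CUG), against 36.7, 38.6 and 35.9 CPM per kb with EGFP(R96Q) alone, lower without overlap but not called. With Arg-tRNA_His(GUG) HOXA5 overlapped, HOXB9 was lower without overlap but not called, with 58.6, 57.5 and 64.0 CPM per kb with Arg-tRNA_His(GUG), against 65, 65.3 and 67.3 CPM per kb with EGFP(R96H) alone.

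Some counts may be shared between genes. By GENCODE release 29, 18 of the 39 HOX genes have more than 10% of their exon length in common with another gene and 14 share none. The libraries were strand-specific, but the value of the counter's strand option is not given in the sources used here, so reads from a gene and from an antisense transcript over it cannot be told apart. This concerns 31.1% of the exon length of HOXA11 (HOXA11-AS), 39.3% of HOXA6 and 62.5% of HOXA7 (HOXA-AS3 for both). HOXD4 shares 80.5% of its exon length with another gene on its own strand, and HOXC6 shares 15.7%, so their values are uncertain. HOXA2, HOXA5, HOXB9, HOXC8, HOXC12 and HOXD13 overlap no other gene.

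With Ser-tRNA_Arg(CCG), most HOX genes rose. Of the 38 tested, 21 rose and 6 fell relative to EGFP(R65) alone (edgeR quasi-likelihood test, Benjamini-Hochberg adjusted p under 0.05 over 22321 genes), while of all genes 57.3% were called, 26.6% higher and 30.7% lower. The libraries of 23 HOX genes were higher and of 6 lower without overlap, where 66.3% of all genes did not overlap in either direction. The median log2 change was 0.36 over the HOX genes and -0.02 over all genes. The rises lay mostly in HOXA, with 10 of 11 genes higher and 1 lower, and in HOXC, with 6 of 9 higher and 0 lower. In HOXB 4 of 9 rose and 2 fell, and in HOXD 1 of 9 rose and 3 fell. By position, 5 of 7 anterior genes (numbers 1 to 3) rose and 0 fell, 9 of 15 central genes (4 to 8) rose and 2 fell, and 7 of 16 posterior genes (9 to 13) rose and 4 fell.

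HOXA11 (chr7:27181510-27185223, minus strand), a gene of the kidney, forearm and uterus, had 48.6, 49.9 and 48.5 CPM with Ser-tRNA_Arg(CCG), against 16.9, 18.4 and 20.6 CPM with EGFP(R65) alone. The groups lay far apart, with a log2 change of 1.39 ± 0.0693 (SE, edgeR adjusted p = 3.34e-18), or 2.63-fold. HOXC6 (chr12:53990624-54030823, plus strand), a thoracic gene, had 48.5, 45.9 and 43.8 CPM with Ser-tRNA_Arg(CCG), against 21.7, 20.9 and 20.3 CPM with EGFP(R65) alone. Every mc-tRNA library was above every other, with a log2 change of 1.14 ± 0.0770 (edgeR adjusted p = 9.06e-15). HOXC13 (chr12:53938765-53946544, plus strand), needed for hair and nails, had 33.7, 35.6 and 33.8 CPM with Ser-tRNA_Arg(CCG), against 17.0, 17.1 and 17.0 CPM with EGFP(R65) alone. The 2 groups were each tight and did not overlap, with a log2 change of 1.01 ± 0.0679 (edgeR adjusted p = 6.87e-15). HOXD4 (chr2:176151222-176153226, plus strand), expressed in the hindbrain, had 0.646, 0.624 and 0.653 CPM with Ser-tRNA_Arg(CCG), against 1.42, 1.20 and 1.17 CPM with EGFP(R65) alone. It was lower in all 3 mc-tRNA libraries, with a log2 change of -0.98 ± 0.313 (edgeR adjusted p = 0.00782), or 1.97-fold lower.

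Other posterior genes rose with Ser-tRNA_Arg(CCG) too. HOXA9, a regulator of blood progenitors, averaged 69.9 ± 5.49 CPM with Ser-tRNA_Arg(CCG) and 38.9 ± 1.70 CPM with EGFP(R65) alone (SD, n = 3 each), a log2 change of 0.85 ± 0.0691. HOXC10, a lumbar gene, averaged 28.6 ± 0.797 CPM with the mc-tRNA and 15.5 ± 0.459 CPM without it, a log2 change of 0.89 ± 0.0698. HOXC11 changed by 0.70 ± 0.0813 and HOXA10, a gene of the uterus, by 0.38 ± 0.0593. Among central genes, HOXB7 averaged 22.6 ± 1.08 CPM with the mc-tRNA and 12.4 ± 0.462 CPM without it, a log2 change of 0.87 ± 0.0761. HOXB4, known from blood stem cells, changed by 0.73 ± 0.111, HOXA4 by 0.72 ± 0.173, HOXA7 by 0.60 ± 0.115 and HOXD8 by 0.59 ± 0.118. Of the anterior genes, HOXB2 changed by 0.53 ± 0.0988 and HOXA2 by 0.52 ± 0.172. Smaller rises were those of HOXA5 (0.49), HOXC4 (0.47), HOXC9 (0.34), HOXA6 (0.33), HOXA3 (0.32) and HOXB3 (0.29).

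Beside HOXD4, the genes that fell with Ser-tRNA_Arg(CCG) were HOXB8 (-0.41 ± 0.131), HOXB9 (-0.38 ± 0.0733), HOXA13 (-0.37 ± 0.129), HOXD11 (-0.34 ± 0.105) and HOXD10 (-0.21 ± 0.0732) on the log2 scale. HOXB9 averaged 97.8 ± 1.77 CPM with Ser-tRNA_Arg(CCG) and 127 ± 4.92 CPM with EGFP(R65) alone. The 11 genes that were not called had log2 changes of -0.26 to 0.67. Single libraries decided 4 calls: HOXA13 was lost without EGFP(R65) replicate 3 or mc-tRNA replicate 1 (edgeR adjusted p up to 0.105), HOXA2 without EGFP(R65) replicate 2 (0.0915), HOXB8 without mc-tRNA replicate 1 (0.0578) and HOXD10 without EGFP(R65) replicate 3 (0.0564). Mitochondrial genes held 2.83 ± 0.0366% of counts with the mc-tRNA and 3.42 ± 0.0900% without it, and the 14 markers of other cell types summed to 2.94 to 3.63 CPM with it and 1.85 to 2.17 CPM without it. Their part in the result was not tested. In bulk samples such as these, fewer cells that express a gene and less RNA per cell cannot be told apart.

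With Arg-tRNA_Cys(GCA), most HOX genes fell. Of the 38 tested, 22 fell and 8 rose relative to EGFP(R96C) alone, while of all genes 60.7% were called, 30.2% higher and 30.5% lower. The libraries of 8 HOX genes were higher and of 23 lower without overlap, as were those of 30.9% and 30.9% of all genes (61.8% in either direction). The median log2 change was -0.76 over the HOX genes and -0.04 over all genes. In HOXA 9 of 11 genes fell and 2 rose, in HOXB 4 of 9 fell and 3 rose, in HOXC 5 of 9 fell and 1 rose, and in HOXD 4 of 9 fell and 2 rose. By position, 3 of 7 anterior genes fell and 2 rose, 9 of 15 central genes fell and 3 rose, and 10 of 16 posterior genes fell and 3 rose. The rises depended on the scaling. With library totals in place of TMM factors, the median of all genes was -0.59, and 31 HOX genes were lower and 0 higher. Of all 22321 genes tested, 15544 were then called, 20.2% of these higher. The TMM factors were 0.714 to 0.730 in the libraries with the mc-tRNA and 1.04 to 1.08 in those without it.

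HOXA2 (chr7:27100354-27102811, minus strand), which patterns the hindbrain and pharyngeal arches, had 1.05, 1.21 and 1.69 CPM with Arg-tRNA_Cys(GCA), against 6.47, 7.06 and 7.94 CPM with EGFP(R96C) alone. All mc-tRNA libraries were far below the others, 5.43-fold, with a log2 change of -2.44 ± 0.180 (edgeR adjusted p = 2.50e-14). HOXA6 (chr7:27145396-27150603, minus strand), a gene of the trunk, had 8.67, 8.18 and 8.06 CPM with Arg-tRNA_Cys(GCA), against 30.5, 32.7 and 40.4 CPM with EGFP(R96C) alone. The groups did not overlap, and the log2 change was -2.06 ± 0.0859 (edgeR adjusted p = 2.40e-21). HOXA13 (chr7:27193503-27200106, minus strand), which acts in the digits and the urogenital tract, had 10.1, 11.1 and 10.3 CPM with Arg-tRNA_Cys(GCA), against 33.7, 30.4 and 39.9 CPM with EGFP(R96C) alone. It was lower in every mc-tRNA library, with a log2 change of -1.73 ± 0.130 (edgeR adjusted p = 2.22e-12). HOXC8 (chr12:54009106-54012362, plus strand), which acts in brachial motor neurons in mice, had 3.68, 3.07 and 2.51 CPM with Arg-tRNA_Cys(GCA), against 7.33, 8.51 and 11.1 CPM with EGFP(R96C) alone. These groups did not overlap either, with a log2 change of -1.55 ± 0.149 (edgeR adjusted p = 2.69e-11).

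Further posterior genes fell with Arg-tRNA_Cys(GCA). HOXD9 averaged 5.41 ± 0.570 CPM with Arg-tRNA_Cys(GCA) and 15.5 ± 4.65 CPM with EGFP(R96C) alone, a log2 change of -1.53 ± 0.165. HOXB13, a gene of the prostate and hindgut, averaged 9.54 ± 0.418 CPM with the mc-tRNA and 24.2 ± 0.493 CPM without it, a log2 change of -1.34 ± 0.0836. HOXD10, a lumbar and limb gene, changed by -1.0 ± 0.0756, HOXD13 by -0.81 ± 0.0576 and HOXD11 by -0.77 ± 0.109. The central genes HOXB5 (-1.29 ± 0.153), HOXA5 (-1.04 ± 0.107), HOXA4 (-0.90 ± 0.182), HOXB6 (-0.90 ± 0.0997), HOXC6 (-0.89 ± 0.0793) and HOXC4 (-0.88 ± 0.0763) fell too. HOXC4 averaged 22.5 ± 0.492 CPM with the mc-tRNA and 41.5 ± 2.85 CPM without it. The smaller falls were HOXB3 (-0.84), HOXC9 (-0.82), HOXA7 (-0.75), HOXA3 (-0.74), HOXC12 (-0.71), HOXA10 (-0.45) and HOXA9 (-0.39). The 8 genes that were not called had log2 changes of -1.46 to 0.69.

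The 8 rises with Arg-tRNA_Cys(GCA) were relative to the other genes of these libraries. HOXB2, a hindbrain gene, averaged 24.5 ± 1.04 CPM with Arg-tRNA_Cys(GCA) and 14.4 ± 2.63 CPM with EGFP(R96C) alone, a log2 change of 0.76 ± 0.0977. HOXD4 changed by 1.11 ± 0.298 with libraries that overlapped, and with library totals neither HOXB2 nor HOXD4 was called (edgeR adjusted p = 0.0730 and 0.108). A further 5 changed sign with library totals: HOXC13 was at 0.51 and then -0.033, HOXB4 at 0.41 and then -0.14, HOXD8 at 0.26 and then -0.29, HOXA11 at 0.24 and then -0.31, and HOXB9 at 0.22 and then -0.32. HOXD8, HOXA11 and HOXB9 were then called lower (edgeR adjusted p = 0.0248, 6.50e-05 and 0.000308). HOXC13 and HOXB4 were not called (0.696 and 0.277). The call of HOXA11 was also lost with no low-count filter (edgeR adjusted p = 0.168). The call of HOXD8 was also lost without any 1 of 5 libraries (EGFP(R96C) replicates 1 and 3 and all 3 with the mc-tRNA). RLE size factors, no low-count filter, no EGFP(R65) libraries, only the groups compared and DESeq2 each lost the HOXD8 call too. The edgeR or DESeq2 adjusted p was up to 0.378 over these settings. The call of HOXB9 was lost without EGFP(R96C) replicate 2 or mc-tRNA replicates 1 or 3 and with no low-count filter (up to 0.129). That of HOXD4 was lost without mc-tRNA replicate 2 and with only the groups compared.

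Several library-wide values moved with this comparison. The 10 most abundant genes held 10.2 ± 0.170% of counts with Arg-tRNA_Cys(GCA) and 6.19 ± 0.423% with EGFP(R96C) alone. Mitochondrial genes held 3.61 ± 0.119% with the mc-tRNA and 5.46 ± 0.467% without it, and the 14 markers of other cell types summed to 7.63 to 8.29 CPM with it and 3.38 to 4.24 CPM without it. Their part in the result was not tested.

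With Arg-tRNA_Trp(CCA), 12 of 38 HOX genes fell and 2 rose relative to EGFP(R96W) alone. Of all genes 42.5% were called, 20.7% higher and 21.7% lower, and of the HOX genes 36.8%, so the share of HOX genes called was near the background. The median log2 change was -0.09 over the HOX genes and -0.03 over all genes. In HOXA 5 of 11 genes fell and 1 rose, in HOXB 2 of 9 fell and 1 rose, in HOXC 2 of 9 fell and in HOXD 3 of 9 fell. By position, 1 of 7 anterior genes fell and 1 rose, 4 of 15 central genes fell, and 7 of 16 posterior genes fell and 1 rose. With library totals the median of all genes was -0.16, and 17 HOX genes were lower and 2 higher. Of all 22321 genes tested, 10173 were then called, 31.4% of these higher.

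HOXC12 (chr12:53954834-53958956, plus strand), a gene of low level known from hair follicles, had 0.548, 1.02 and 1.14 CPM with Arg-tRNA_Trp(CCA), against 1.74, 1.6 and 2.45 CPM with EGFP(R96W) alone. It was lower without overlap, with a log2 change of -1.08 ± 0.215 (edgeR adjusted p = 0.000101). HOXA6 had 14.4, 14.0 and 14.9 CPM with Arg-tRNA_Trp(CCA), against 32.3, 30.3 and 28.9 CPM with EGFP(R96W) alone. The groups lay far apart, 2.11-fold, with a log2 change of -1.08 ± 0.0799 (edgeR adjusted p = 2.67e-13). HOXB4 (chr17:48575513-48580111, minus strand) had 9.54, 9.31 and 10.7 CPM with Arg-tRNA_Trp(CCA), against 16.6, 15.7 and 16.9 CPM with EGFP(R96W) alone. All mc-tRNA libraries were lower, with a log2 change of -0.73 ± 0.111 (edgeR adjusted p = 1.57e-06). HOXA2 had 2.22, 2.52 and 2.57 CPM with Arg-tRNA_Trp(CCA), against 4.30, 4.02 and 3.61 CPM with EGFP(R96W) alone. These groups did not overlap, with a log2 change of -0.71 ± 0.164 (edgeR adjusted p = 0.000621).

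The other falls with Arg-tRNA_Trp(CCA) were HOXB13 (-0.66 ± 0.0817), HOXA13 (-0.61 ± 0.121), HOXA5 (-0.52 ± 0.105), HOXA10 (-0.26 ± 0.0587), HOXD13 (-0.24 ± 0.0571), HOXD10 (-0.23 ± 0.0726) and HOXC4 (-0.21 ± 0.0737) on the log2 scale, and HOXD12 at 0.0314 ± 0.0159 CPM with the mc-tRNA and 0.134 ± 0.0814 CPM without it, near what a count of 0 allows. The libraries of HOXC4, HOXD10 and HOXD12 overlapped. The call of HOXC4 was lost without EGFP(R96W) replicate 2 or mc-tRNA replicates 1 or 2. It was also lost without the EGFP(R65) libraries and with only the groups compared (edgeR adjusted p up to 0.171). That of HOXD10 was lost without mc-tRNA replicate 2 (0.0979). That of HOXD12 was lost without any 1 of 4 libraries, with no low-count filter and with DESeq2 (edgeR or DESeq2 adjusted p up to 0.142). The rises were HOXB2, which averaged 14.8 ± 1.59 CPM with Arg-tRNA_Trp(CCA) and 10.3 ± 0.944 CPM with EGFP(R96W) alone, a log2 change of 0.52 ± 0.100, and HOXA11, which averaged 33.7 ± 1.91 CPM with the mc-tRNA and 27.3 ± 1.45 CPM without it, a log2 change of 0.31 ± 0.0678. The 24 genes that were not called had log2 changes of -0.21 to 0.66. Mitochondrial genes held 3.04 ± 0.190% of counts with the mc-tRNA and 4.75 ± 0.284% without it, and the 14 markers of other cell types summed to 1.62 to 2.11 CPM with it and 2.59 to 3.26 CPM without it. Their part in the result was not tested.

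With Arg-tRNA_His(GUG), 4 of 38 HOX genes rose and 0 fell relative to EGFP(R96H) alone, while of all genes 2.51% were called, 1.56% higher and 0.950% lower. HOXC13 had 19.1, 18.7 and 18.6 CPM with Arg-tRNA_His(GUG), against 14.9, 14.0 and 12.6 CPM with EGFP(R96H) alone. The groups did not overlap, with a log2 change of 0.45 ± 0.0685 (edgeR adjusted p = 0.000293), and this call held under every alternative tried. HOXC6 had 23.3, 21.2 and 23.4 CPM with Arg-tRNA_His(GUG), against 19.7, 19.8 and 16.3 CPM with EGFP(R96H) alone. The gap between the groups was narrow, with a log2 change of 0.28 ± 0.0773 (edgeR adjusted p = 0.0409). HOXD13 (chr2:176092891-176095938, plus strand) had 76.3, 74.4 and 74.1 CPM with Arg-tRNA_His(GUG), against 65.1, 63.8 and 60.1 CPM with EGFP(R96H) alone. These groups did not overlap, with a log2 change of 0.25 ± 0.0565 (edgeR adjusted p = 0.0124).

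The calls of HOXC6 and HOXD13 with Arg-tRNA_His(GUG) rested on single libraries. Each was lost without EGFP(R96H) replicate 3 or mc-tRNA replicate 1 or 2, with edgeR adjusted p of up to 0.347 for HOXC6 and 0.133 for HOXD13 over these and the other alternatives that lost it. HOXC6 was also lost without EGFP(R96H) replicate 2 or mc-tRNA replicate 3. The count of 4 was 1 without EGFP(R96H) replicate 3 or mc-tRNA replicate 1. The 34 genes that were not called had log2 changes of -0.43 to 0.50. At an unadjusted p under 0.05 there were 12 of 38 HOX genes (31.6%), against 16.3% of all genes. Mitochondrial genes held 5.61 ± 0.161% of counts with the mc-tRNA and 4.91 ± 0.0815% without it, and the 14 markers of other cell types summed to 3.01 to 3.41 CPM with it and 3.46 to 3.98 CPM without it. Their part in the result was not tested.

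With Arg-tRNA_Gln(CUG), 0 of 38 HOX genes were called relative to EGFP(R96Q) alone by edgeR and 0 by DESeq2, where 0.551% of all genes were called, 0.273% higher and 0.278% lower. At an unadjusted p under 0.05 edgeR gave 4 HOX genes (10.5%), against 10.2% of all genes, so the share of HOX genes was at the background. The libraries of 4 HOX genes were higher and of 4 lower without overlap, against 8.33% and 7.88% of all genes (16.2% in either direction). The log2 changes ran from -0.26 to 0.42 with a median of 0.03, and the smallest adjusted p was 0.162. A p that misses the threshold does not show that the levels were alike.

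**Figure D2:**
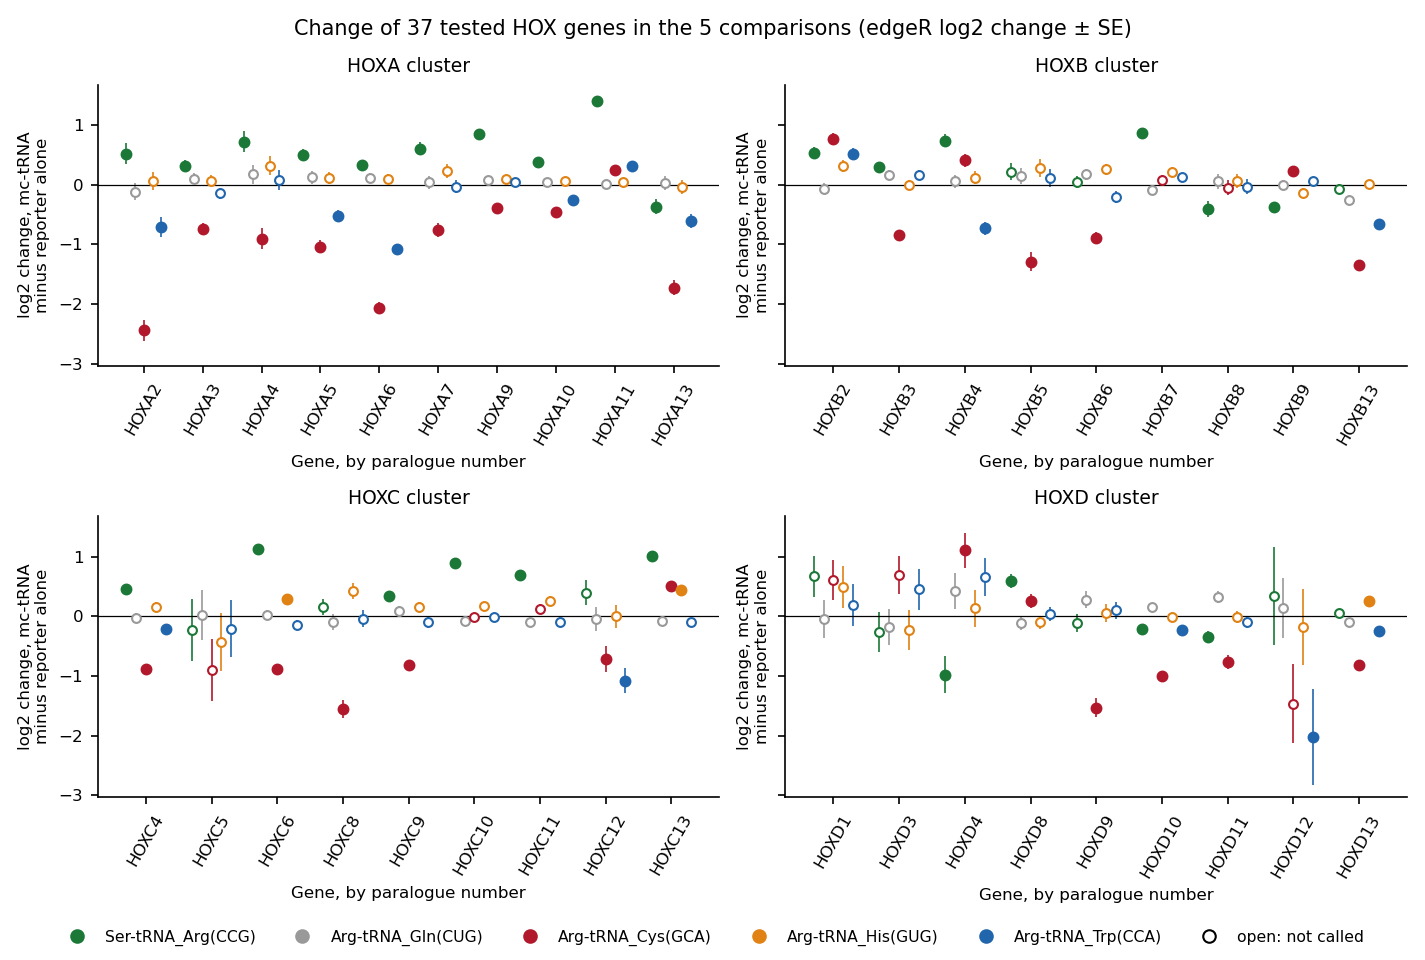
Log2 change ± SE (edgeR, mc-tRNA minus reporter alone, 3 libraries against 3) of 37 tested HOX genes in the 5 comparisons, by cluster, with filled points for called genes. Over all 38 tested genes, with Ser-tRNA_Arg(CCG) 21 genes were higher and 6 lower, and with Arg-tRNA_Cys(GCA) 8 were higher and 22 lower, or 0 and 31 with library totals. With library totals 15544 of all 22321 tested genes were called with Arg-tRNA_Cys(GCA), 20.2% of these higher.

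**Figure D3:**
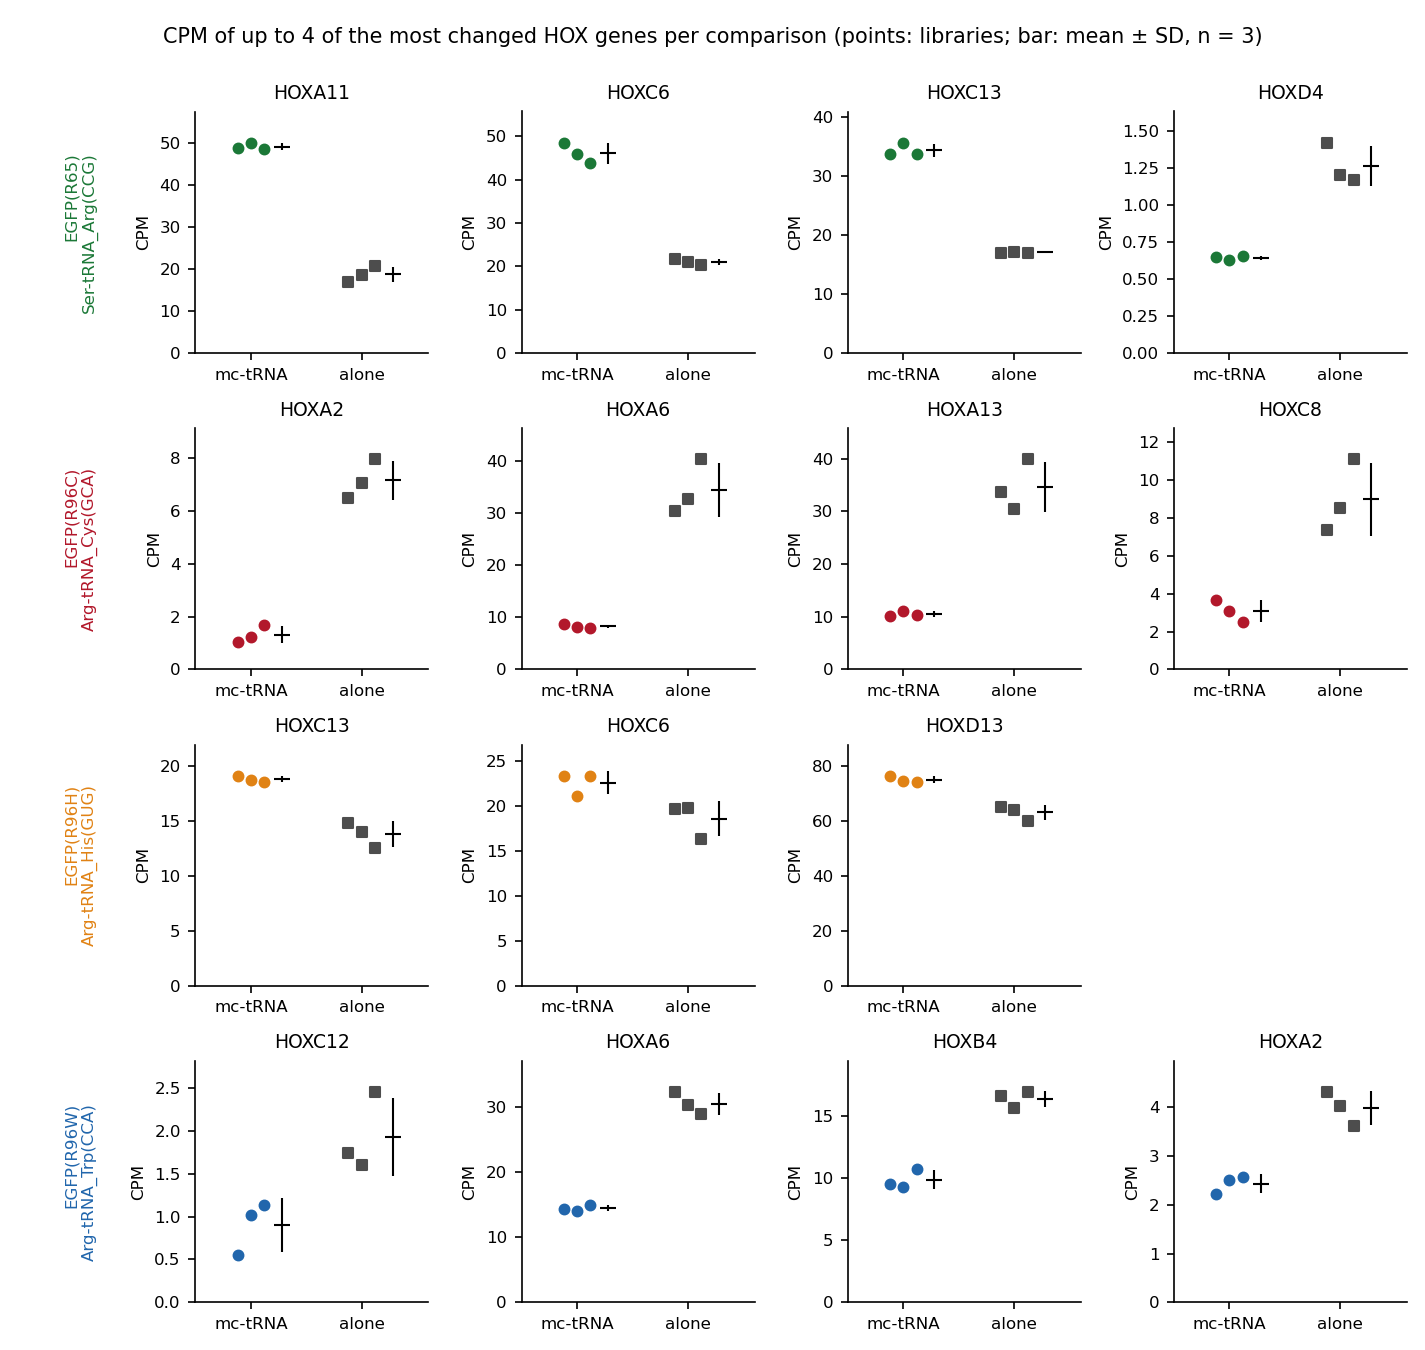
CPM in each library of 3 or 4 called HOX genes with the largest changes in each of 4 comparisons, mc-tRNA libraries left and reporter alone right, with mean ± SD of 3 libraries beside the points. The groups do not overlap in any panel, and the largest change is that of HOXA2 with Arg-tRNA_Cys(GCA), at -2.44 on the log2 scale.

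The mc-tRNA effects differed from one another. An F-test of the 5 effects was called for 33 of 38 HOX genes (86.8%), against 72.5% of all genes, and the 5 genes not called were HOXB8, HOXC5, HOXD1, HOXD3 and HOXD12. The Ser-tRNA_Arg(CCG) effect minus the Arg-tRNA_Cys(GCA) effect was called for 29 HOX genes, 27 positive and 2 negative, against 56.5% of all genes, 25.3% positive and 31.3% negative. These 2 comparisons share no library. The difference was 2.96 ± 0.250 for HOXA2 (edgeR adjusted p = 1.77e-12), 2.39 ± 0.116 for HOXA6 and 2.02 ± 0.111 for HOXC6 on the log2 scale. It was 1.70 ± 0.202 for HOXC8, 1.62 ± 0.251 for HOXA4 and 1.53 ± 0.149 for HOXA5.

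Of the HOX genes, 12 rose with Ser-tRNA_Arg(CCG) and fell with Arg-tRNA_Cys(GCA): HOXA2, HOXA3, HOXA4, HOXA5, HOXA6, HOXA7, HOXA9, HOXA10, HOXB3, HOXC4, HOXC6 and HOXC9. They were 31.6% of the 38 HOX genes, and 5.88% of all genes rose with the first and fell with the second. With library totals the count was 17, against 11.8% of all genes. HOXA11, HOXB2, HOXB4, HOXC13 and HOXD8 were among those that rose with both, which were 15.8% of the HOX genes, against 10.8% of all genes. With library totals 0 HOX genes rose with both, against 5.26% of all genes. For Arg-tRNA_Cys(GCA), HOXA11 and HOXD8 were then called lower. HOXB2 was not called, and HOXB4 and HOXC13 were negative but not called. HOXA13, HOXD10 and HOXD11 fell with both, 7.89% of the HOX genes, against 13.3% of all genes. With library totals these shares were 13.2% and 22.9%. HOXB9 and HOXD4 fell with Ser-tRNA_Arg(CCG) and rose with Arg-tRNA_Cys(GCA), with differences of -0.60 ± 0.103 and -2.08 ± 0.432. With library totals HOXD4 was not called in the second comparison. HOXB9 was then called lower in it, and the HOXB9 difference was not called (edgeR adjusted p = 0.466).

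**Figure D4:**
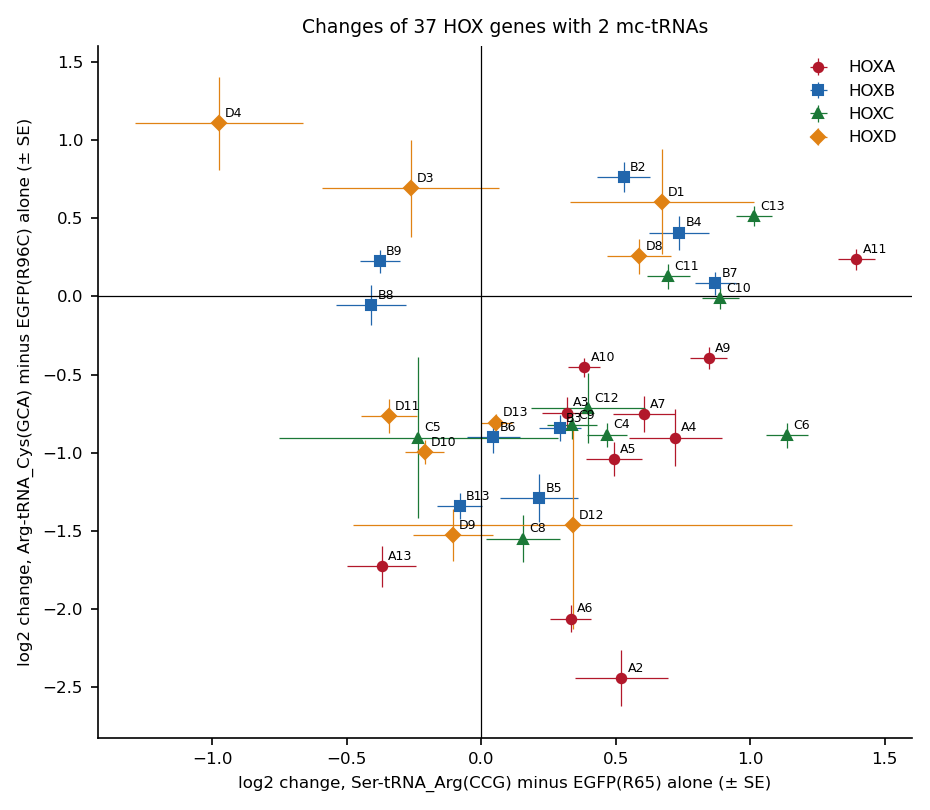
Log2 change ± SE with Ser-tRNA_Arg(CCG) minus EGFP(R65) alone (horizontal) and with Arg-tRNA_Cys(GCA) minus EGFP(R96C) alone (vertical) for 37 HOX genes, coloured by cluster. The 12 genes that rose with the first and fell with the second lie in the lower right, and of the upper genes HOXA11, HOXB4, HOXB9, HOXC13 and HOXD8 lie below 0 on the vertical axis with library totals.

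With both Arg-tRNA_Cys(GCA) and Arg-tRNA_Trp(CCA), 10 HOX genes fell: HOXA2, HOXA5, HOXA6, HOXA10, HOXA13, HOXB13, HOXC4, HOXC12, HOXD10 and HOXD13. They were 26.3% of the HOX genes, against 12.9% of all genes, and with library totals they were 15 genes, against 25.4% of all genes. The size of the fall differed for most of the 10. The Arg-tRNA_Cys(GCA) effect minus the Arg-tRNA_Trp(CCA) effect was called for 23 HOX genes, 3 positive and 20 negative, against 43.7% of all genes, 23.7% positive and 20.0% negative. It was -1.73 ± 0.246 for HOXA2, -1.12 ± 0.177 for HOXA13 and -0.98 ± 0.117 for HOXA6. The positive ones included HOXB4 (1.14 ± 0.156) and HOXC13 (0.61 ± 0.0961), of which HOXC13 was not called with library totals (edgeR adjusted p = 0.127). The Ser-tRNA_Arg(CCG) effect minus the Arg-tRNA_Trp(CCA) effect was called for 24 HOX genes, 22 positive and 2 negative, against 45.3% of all genes, 19.5% positive and 25.8% negative.

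Summed over the cluster, HOXA had 343, 343 and 353 CPM with Ser-tRNA_Arg(CCG), against 232, 226 and 236 CPM with EGFP(R65) alone. It had 215, 216 and 223 CPM with Arg-tRNA_Cys(GCA), against 318, 324 and 374 CPM with EGFP(R96C) alone. It had 236, 239 and 260.1 CPM with Arg-tRNA_Trp(CCA), against 300.3, 289 and 291 CPM with EGFP(R96W) alone. HOXA thus lay above its reporter in the first pair and below it in the others, without overlap. The HOXC sum was 199 ± 2.69 CPM with Ser-tRNA_Arg(CCG) and 119 ± 1.01 CPM with EGFP(R65) alone, and 135.8 ± 1.5 CPM with Arg-tRNA_Cys(GCA) and 172 ± 10.9 CPM with EGFP(R96C) alone (SD, n = 3 each). The HOXD sum was 107 ± 2.90 CPM with Arg-tRNA_Cys(GCA) and 187 ± 18.6 CPM with EGFP(R96C) alone. The HOXB sum was 315 ± 1.56 CPM with Ser-tRNA_Arg(CCG) and 304 ± 8.67 CPM with EGFP(R65) alone, and 313 ± 9.92 CPM with Arg-tRNA_Cys(GCA) and 337 ± 25.7 CPM with EGFP(R96C) alone. These sums are set by the most abundant members, of which HOXB9 is one, and were not tested. They include the TMM factors, at 0.714 to 0.730 with Arg-tRNA_Cys(GCA) and 1.04 to 1.08 with EGFP(R96C) alone. Without these factors the Arg-tRNA_Cys(GCA) sums would lie lower relative to EGFP(R96C) alone. The nearly equal HOXB sums of that comparison thus hold only on this scale.

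**Figure D5:**
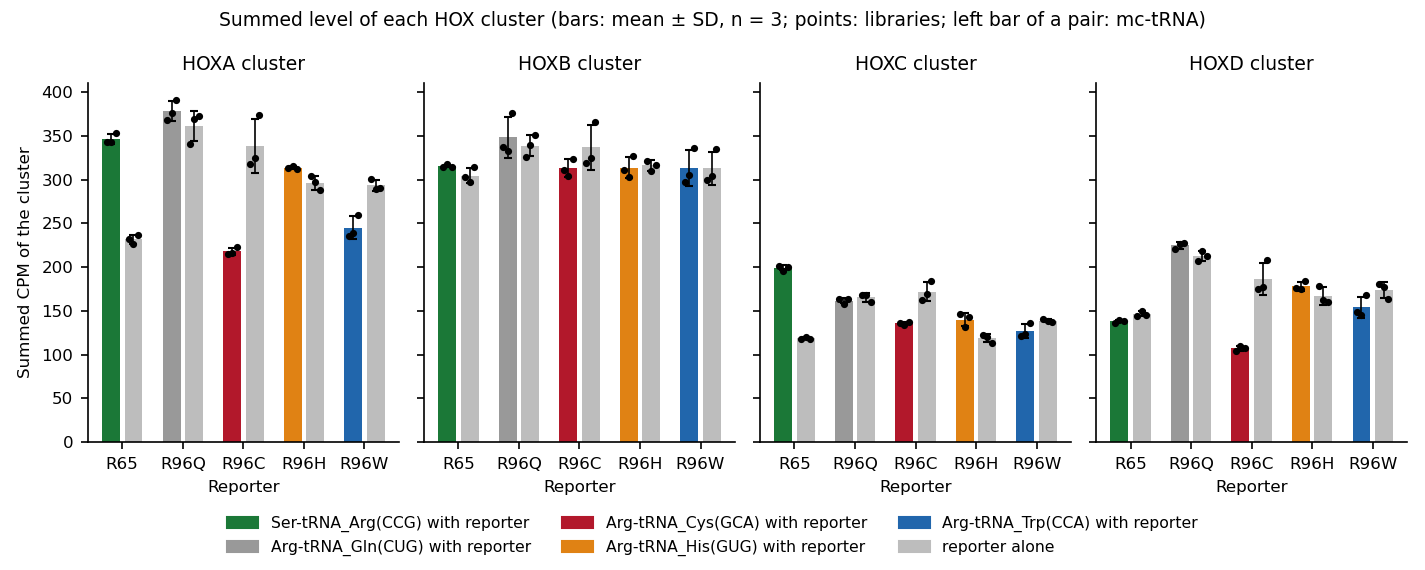
Summed CPM of each HOX cluster by reporter, with the mc-tRNA bar left of the bar for the reporter alone, as mean ± SD of 3 libraries with points for libraries. The CPM include the TMM factors. The HOXA sum averages 346 CPM with Ser-tRNA_Arg(CCG) and 232 CPM with EGFP(R65) alone, and 218 CPM with Arg-tRNA_Cys(GCA) and 339 CPM with EGFP(R96C) alone.

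The reporters alone differed as well. Among the 4 EGFP(R96) reporters without an mc-tRNA, 29 of 38 HOX genes differed (F-test), against 54.7% of all genes. Of the 29, the highest mean was with EGFP(R96Q) for 14 genes, EGFP(R96C) for 14 and EGFP(R96H) for 1, and the lowest with EGFP(R96H) for 17 and EGFP(R96W) for 10. HOXA2 averaged 9.59 ± 1.04 CPM with EGFP(R96Q), 7.16 ± 0.736 with EGFP(R96C), 4.51 ± 0.634 with EGFP(R96H) and 3.98 ± 0.348 with EGFP(R96W), a range of 2.41-fold. HOXB5 ranged 2.02-fold and HOXC8 1.95-fold. ERCC counts differed among these 4 groups too, and their part in the result was not tested. EGFP(R65) alone minus the mean of the 4 EGFP(R96) reporters alone was called for 28 HOX genes, 3 higher and 25 lower, against 69.0% of all genes, 33.6% higher and 35.4% lower. It was -1.49 ± 0.139 for HOXA2, -1.21 ± 0.105 for HOXA13 and -0.94 ± 0.0680 for HOXB13, and 0.70 ± 0.0593 for HOXB3, 1 of the 3 that were higher. The call of HOXB2, another of the 3, was lost with library totals, with only the groups compared and without any 1 of 7 libraries (edgeR adjusted p up to 0.190).

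Genes that act with or on HOX genes were counted in lists, to be read against the shares of all genes called: 57.3% with Ser-tRNA_Arg(CCG), 60.7% with Arg-tRNA_Cys(GCA) and 42.5% with Arg-tRNA_Trp(CCA). Of the 9 TALE cofactors, 7 rose and 2 fell with Ser-tRNA_Arg(CCG), 1 rose and 7 fell with Arg-tRNA_Cys(GCA), and 1 rose and 6 fell with Arg-tRNA_Trp(CCA), with medians of 0.54, -0.29 and -0.21 on the log2 scale. That is 100% of the list called with the first, 88.9% with the second and 77.8% with the third. With library totals the median with Arg-tRNA_Cys(GCA) was -0.83, with 1 higher and 8 lower. PBX2 averaged 46.5 ± 4.23 CPM with the mc-tRNA and 98.1 ± 4.86 CPM without it in the Arg-tRNA_Cys(GCA) comparison, a log2 change of -1.08 ± 0.0614, or -1.62 with library totals. PBX3 rose by 0.67 ± 0.0596 and PBX4 changed by -0.61 ± 0.105 with Ser-tRNA_Arg(CCG). PKNOX1 rose with Ser-tRNA_Arg(CCG) (0.66 ± 0.0698), Arg-tRNA_Cys(GCA) (1.14 ± 0.0707, or 0.59 with library totals) and Arg-tRNA_Trp(CCA) (0.29 ± 0.0705), the last not called with library totals. Of 16 tested genes of the CDX and retinoic acid list, 7 rose and 5 fell with Ser-tRNA_Arg(CCG), 4 rose and 9 fell with Arg-tRNA_Cys(GCA), or 2 and 13 with library totals, and 3 rose and 9 fell with Arg-tRNA_Trp(CCA). With Arg-tRNA_Cys(GCA), the retinoid receptor RXRG changed by 2.86 ± 0.183, ALDH1A2, which makes retinoic acid, by 1.58 ± 0.0662 (1.03 with library totals), CYP26B1, which degrades it, by -1.25 ± 0.124 and CDX2 by -1.12 ± 0.0870. With Ser-tRNA_Arg(CCG) the receptor RARA changed by 0.91 ± 0.0866 and CYP26B1 by 0.82 ± 0.110. The largest falls there were ALDH1A1 at -2.18 ± 0.609 and STRA6 at -1.51 ± 0.369, both with means under 1 CPM.

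Of the 35 Polycomb genes, 10 rose and 12 fell with Ser-tRNA_Arg(CCG), and 11 rose and 9 fell with Arg-tRNA_Trp(CCA), or 6 and 14 with library totals. With Arg-tRNA_Cys(GCA) 19 rose and 9 fell, a median of 0.25, but with library totals 6 rose and 20 fell, a median of -0.29. The list's share called was 62.9% with Ser-tRNA_Arg(CCG), near that of all genes, 80% with Arg-tRNA_Cys(GCA) and 57.1% with Arg-tRNA_Trp(CCA). RYBP changed by 1.44 ± 0.0747, the chromobox genes CBX7 by -1.04 ± 0.0998 and CBX2 by -0.98 ± 0.0632 with Arg-tRNA_Cys(GCA), and with library totals these were 0.89, -1.59 and -1.52. With Ser-tRNA_Arg(CCG) the methyltransferase gene EZH1 changed by -1.10 ± 0.101, RBBP7 by -1.19 ± 0.0512 and PHC2 by 0.78 ± 0.0679. Of the 27 Trithorax, MLL and H3K27 demethylase genes, 14 rose and 5 fell with Ser-tRNA_Arg(CCG), 11 rose and 14 fell with Arg-tRNA_Cys(GCA), or 3 and 17 with library totals, and 13 rose and 5 fell with Arg-tRNA_Trp(CCA), or 8 and 6. ASH1L changed by 1.07 ± 0.109 with Ser-tRNA_Arg(CCG), and KDM6A, an H3K27 demethylase, by 0.99 ± 0.0820 (0.44 with library totals) and HCFC1 by -1.54 ± 0.0931 with Arg-tRNA_Cys(GCA). Of the 11 CTCF and cohesin genes, 9 rose and 2 fell with Arg-tRNA_Cys(GCA), or 3 and 4 with library totals. In that comparison the largest rises were STAG1 at 1.29 ± 0.132 and STAG2 at 1.16 ± 0.206, or 0.74 and 0.61 with library totals. CTCF, which binds domain borders and was 1 of the 2 that fell, changed by -0.19 ± 0.0550, or -0.74 with library totals.

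Transcripts near the HOX genes were counted in the same way. Of the noncoding transcripts 62.5% were called with Ser-tRNA_Arg(CCG), near the 57.3% of all genes. With Arg-tRNA_Cys(GCA) 81.2% were called, against 60.7%, and with Arg-tRNA_Trp(CCA) 37.5%, against 42.5%. Of the neighbours 71.4%, 42.9% and 42.9% were called in that order. This was below the share of all genes in the second comparison and near it in the third. Of 16 tested noncoding transcripts of the clusters, 7 rose and 3 fell with Ser-tRNA_Arg(CCG), 1 rose and 12 fell with Arg-tRNA_Cys(GCA) and 0 rose and 6 fell with Arg-tRNA_Trp(CCA). HOXA-AS2 averaged 9.05 ± 0.579 CPM with the mc-tRNA and 2.67 ± 0.175 CPM without it in the Ser-tRNA_Arg(CCG) comparison, a log2 change of 1.76 ± 0.117. HAGLR, in the HOXD cluster, changed by -1.57 ± 0.112 there and HOTAIRM1, in the HOXA cluster, by -0.78 ± 0.0898. HOXC-AS2 changed by -2.79 ± 0.253 with Arg-tRNA_Cys(GCA), and the 1 rise, HOXC13-AS at 0.42 ± 0.176, was at -0.12 with library totals. Of 14 tested neighbours of the clusters that are no HOX genes, 5 rose and 5 fell with Ser-tRNA_Arg(CCG), 2 rose and 4 fell with Arg-tRNA_Cys(GCA), or 2 and 10 with library totals, and 1 rose and 5 fell with Arg-tRNA_Trp(CCA). CALCOCO2, beyond the HOXB cluster, changed by 1.63 ± 0.0693 (1.08 with library totals) with Arg-tRNA_Cys(GCA), and SKAP2, beside HOXA, by -0.73 ± 0.0797 with Arg-tRNA_Trp(CCA). With Arg-tRNA_Gln(CUG) none of these lists had a called gene, and with Arg-tRNA_His(GUG) CALCOCO1 alone was called, at -0.25 ± 0.0631. With Ser-tRNA_Arg(CCG) 2 of the CTCF and cohesin genes rose and 1 fell, and with Arg-tRNA_Trp(CCA) 1 rose and 2 fell.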

How the data were processed

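Per the labels' protocols, 3 independent replicates of each of 10 groups of HEK293 cells were sorted for mCherry 48 h after Lipofectamine transfection, and polyA-selected RNA was made into strand-specific TruSeq libraries and sequenced on a NovaSeq6000. STAR, SAMtools, featureCounts and the build hg38 are named in the submitters' processing notes, while tool versions, the annotation and the setting for strand were not given in the sources used here. What the authors deposited is a raw, unnormalized count for each gene. Of 58278 gene identifiers, 41844 were matched to a symbol. Positions and exon lengths came from GENCODE release 29 (GRCh38), where 36 of 39 HOX genes have the same identifier version.

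A robust quasi-likelihood model was fitted in edgeR 4.0.16 (R 4.3.3) after filterByExpr and TMM scaling, with 10 group means over 30 libraries and 20 residual degrees of freedom. In all 22321 genes were tested, with Benjamini-Hochberg adjustment over all of them and calls at an adjusted p under 0.05. Simulated counts with planted changes served to test the script. CPM values are scaled by library total and TMM factor, except the floors, which use totals. Alternatives were RLE size factors, library totals, no low-count filter, a replicate block, only the groups compared, no EGFP(R65) libraries, DESeq2 1.42.0 and leaving out each library. Replicate pairs differed by 2.08 to 36.7 chi-square units per degree of freedom, more than counting error, so none was treated as a duplicate.

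Per-library values are given for up to 4 called members with the largest change per comparison, among those with a mean of at least 1 CPM in either group, and for the 3 highest per kilobase. Other members with a mean of at least 1 CPM are named with values and the rest by ranges. Results of some genes are not reported here by name, though counts include them. The members and lists were chosen with earlier results of these data known.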

Additional observations from a re-analysis of the deposited data

Results flagged for a closer look

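The 5 mc-tRNA effects differed from each other in an F-test for 33 of 38 HOX genes (86.8%), against 72.5% of all genes. The values of most of the 33 follow. In the HOXA cluster the edgeR adjusted p was 6.22e-10 for HOXA10, 1.28e-14 for HOXA11, 4.11e-09 for HOXA13, 5.71e-12 for HOXA2, 1.81e-07 for HOXA3, 1.43e-05 for HOXA4, 1.86e-09 for HOXA5, 1.27e-19 for HOXA6, 1.16e-07 for HOXA7 and 8.88e-12 for HOXA9. In the HOXB cluster the edgeR adjusted p was 3.29e-12 for HOXB13, 4.21e-05 for HOXB2, 2.52e-10 for HOXB3, 6.53e-09 for HOXB4, 2.46e-07 for HOXB5, 2.53e-08 for HOXB6, 7.55e-09 for HOXB7 and 6.29e-05 for HOXB9. In the HOXC cluster the edgeR adjusted p was 1.41e-10 for HOXC10, 5.97e-07 for HOXC11, 0.000294 for HOXC12, 2.15e-12 for HOXC13, 3.40e-12 for HOXC4, 4.31e-16 for HOXC6, 1.27e-09 for HOXC8 and 6.63e-09 for HOXC9. In the HOXD cluster the edgeR adjusted p was 8.76e-11 for HOXD10, 1.13e-06 for HOXD11, 1.08e-12 for HOXD13, 0.00106 for HOXD4, 0.00111 for HOXD8 and 3.25e-07 for HOXD9.

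The effects of Ser-tRNA_Arg(CCG) and Arg-tRNA_Cys(GCA) had opposite signs, both called, for 14 HOX genes. Of these, 12 rose with the first and fell with the second (31.6% of the 38), against 5.88% of all genes. HOXB9 and HOXD4 went the other way, and that share of all genes was not counted. The first minus the second was tested itself, but in genes picked by these calls a difference adds no separate support. On the log2 scale it was 0.84 for HOXA10, 2.96 for HOXA2, 1.06 for HOXA3, 1.62 for HOXA4, 1.53 for HOXA5, 2.39 for HOXA6, 1.36 for HOXA7, 1.24 for HOXA9, 1.13 for HOXB3, 1.35 for HOXC4, 2.02 for HOXC6 and 1.16 for HOXC9. It was -0.60 for HOXB9 and -2.08 for HOXD4, and for HOXB9 it was not called with library totals (edgeR adjusted p = 0.466).

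ERCC spike-in sequences entered no test, and the highest count in a library was 106, in an EGFP(R96) library, where all EGFP(R65) libraries had 0.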

How the results depend on the processing

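Of 179 called changes and differences of HOX genes, 177 kept direction and call with RLE size factors, 166 with library totals, 172 with no low-count filter and 176 with DESeq2. With only the groups compared 173 of 178 did, and without the EGFP(R65) libraries 68 of 71. With library totals, 5 changes with Arg-tRNA_Cys(GCA) reversed: HOXD8 to -0.29, HOXA11 to -0.31, HOXC13 to -0.033, HOXB4 to -0.14 and HOXB9 to -0.32. Of these, HOXD8, HOXA11 and HOXB9 were then called lower, and HOXC13 and HOXB4 were not called. In that comparison, 49.8% of all called genes were higher, against 20.2% with library totals, and with Arg-tRNA_Trp(CCA) 48.8% against 31.4%. The cause was not tested. The count of HOX genes called with Arg-tRNA_His(GUG) was 4, but 8 with only the groups compared and 1 to 3 when 1 library was left out. The other counts stayed within 1.5 times, at 25 to 27 for Ser-tRNA_Arg(CCG), 27 to 31 for Arg-tRNA_Cys(GCA), 12 to 19 for Arg-tRNA_Trp(CCA) and 0 for Arg-tRNA_Gln(CUG). Leaving out 1 library at a time lost 57 of 1782 calls and reversed 0.

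Deviations of samples with the same replicate number correlated at -0.0772 to 0.140, and those of samples with different numbers at -0.189 to 0.102. Not every sample correlated best with its own number. Such low values cannot settle whether the numbers pair the samples, and the main fit did not pair them. With a replicate block, 179 of 179 calls were kept. For HOX members called with Arg-tRNA_His(GUG) the count was then 5, not 4, and over all genes 1124, not 560, while it was 1911 with only the groups compared, 369 without the EGFP(R65) libraries and as low as 53 with 1 library left out. For HOX members called with Arg-tRNA_Gln(CUG) the count stayed at 0, and over all genes it was 231 with the block or DESeq2, 196 with no filter and 66 with only the groups compared, not 123, and as low as 45 with 1 library left out. Genes near the floor of 0.0541 to 0.0769 CPM, HOXB1 and HOXD12 among them, are limited by depth.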
